A study of Homo sapiens with 2 samples.

Results

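Deep intronic LSD1 peaks lay inside the introns of protein-coding genes, away from the starts of their protein-coding transcripts. A peak was counted when its midpoint fell in the body of a protein-coding gene, outside every exon of such genes, and more than 10 kb from the start of every protein-coding transcript. Of the 20110 deposited peaks, 1688 (8.39%, interval 8.01 to 8.79) met this rule. The rule did not use the other transcripts of coding genes. Of the 1688, 1020 lay more than 10 kb from the start of every transcript of coding genes. The peaks came from chromatin immunoprecipitation of LSD1 (KDM1A) with 1 sequenced library, and 1 library of input DNA served as background. Both libraries were labelled as biological replicate 1 and were made from PC-3M-luc cells of genotype Control at passages 17 to 20. PC-3M-luc is a luciferase-marked derivative of PC-3M, a metastatic human prostate carcinoma line. The deposited list was read as peaks of the LSD1 library over the input library, although no label says so directly.

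LSD1 removes methyl groups from mono- and dimethylated lysine 4 of histone H3, the marks found at enhancers and around promoters. It acts in complexes with CoREST and histone deacetylases and in the NuRD complex. Introns hold many enhancers, which are bound by sequence-specific factors such as AP-1, a dimer of JUN and FOS proteins induced by growth factor and stress signalling. A peak inside an intron need not act on the gene that holds it, and a gene holding such a peak is called its host below only in the sense of position.

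Since each arm had 1 library, nothing here could be checked against a replicate, and no p-values are given. Intervals are at 95% and cover counting error only. They are exact binomial (Clopper-Pearson) for shares, exact Poisson for densities, exact order-statistic intervals for medians, and Newcombe intervals for differences of shares. Neighbouring peaks and peaks in 1 gene are not independent, so these intervals are too narrow to that extent. The score of a peak is the authors' own value, used here only to describe and rank peaks. The sources used here give no read numbers, so the depth of either library is unknown. Genes without a listed peak may still be bound below the threshold that the authors applied. Coordinates are on hg19 and are 1-based.

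The sequence element examined most closely at these peaks was the AP-1 site TGACTCA, which reads TGAGTCA on the other strand. The 5 highest-scoring deep intronic peaks with this site within 50 bp of the midpoint, on the chromosomes from which sequence was taken, are shown to let its surroundings be read. Each line gives 100 bp of the plus strand of GRCh37 around the midpoint, with the AP-1 site in capitals. The peaks lie in DLGAP1 at chr18:3624114-3624213 and again at chr18:3595526-3595625, in RAI1 at chr17:17597627-17597726, in INPP5A at chr10:134480386-134480485 and in TIMP2 at chr17:76858236-76858335.
DLGAP1 intron 7, peak score 3100.00: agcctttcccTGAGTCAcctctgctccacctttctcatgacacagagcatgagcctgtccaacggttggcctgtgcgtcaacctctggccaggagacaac
DLGAP1 intron 7, peak score 1732.97: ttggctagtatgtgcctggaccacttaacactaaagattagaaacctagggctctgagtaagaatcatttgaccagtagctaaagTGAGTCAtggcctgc
RAI1 intron 1, peak score 701.11: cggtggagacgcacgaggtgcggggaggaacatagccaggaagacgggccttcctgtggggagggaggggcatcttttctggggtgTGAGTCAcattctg
INPP5A intron 4, peak score 489.84: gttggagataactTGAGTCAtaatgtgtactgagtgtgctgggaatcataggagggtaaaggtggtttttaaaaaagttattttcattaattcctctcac
TIMP2 intron 3, peak score 479.32: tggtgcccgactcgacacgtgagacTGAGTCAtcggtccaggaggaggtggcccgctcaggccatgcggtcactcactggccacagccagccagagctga

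The GC content of these 5 stretches ran from 36% in INPP5A to 65% in TIMP2, so the site occurred in both AT-rich and GC-rich surroundings. The DLGAP1 peaks are among the strongest of all deep intronic peaks, and the shares below set the site's frequency against that of intron sequence without a peak.

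Deep introns are a large and thinly occupied part of the genome. They make up 883 Mb, or 30.9% of the sequence outside assembly gaps, and held 1.91 peaks per Mb (interval 1.82 to 2.01). All other sequence held 18422 peaks, or 9.32 per Mb, so the density in deep introns was 0.205 times as high (interval 0.195 to 0.216). Intron sequence 1 to 10 kb from a start held 8.4 per Mb, and the ratio of deep to near introns was 0.228 (0.214 to 0.243). Intergenic sequence more than 10 kb from a start held 1.89 per Mb, and the ratio of deep introns to it was 1.01 (0.951 to 1.08), an interval that includes 1.

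Deep intronic peaks were narrower and lower in score than most others. Their median width was 1315 bp (interval 1281 to 1360), against 1427 bp (1388 to 1465) in near introns and 1828 bp at promoters, meaning within 1 kb of a coding start. The width in remote intergenic sequence was 1321 bp (1281 to 1367), with an interval that overlaps. The median score was 81.4 (78.7 to 84.6) in deep introns, the lowest of the 6 position classes. It was 92.4 (88.5 to 97.5) in near introns, 110 (105 to 115) in remote intergenic sequence and 389 at promoters. Scores of deep intronic peaks ran from 50.05 to 3197.22, with 637 (37.7%) at 100 or more, and 7 at the repeated value of 3100. Widths ran from 405 to 16651 bp. The whole peak, and not only its midpoint, met the rule in 1115 (66.1%). The 101 peaks just inside the distance limit, at 10 to 11 kb, had a median score of 85.1 and a median width of 1226 bp. The 143 intronic peaks just outside it, at 9 to 10 kb, had 90.4 and 1443 bp.

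Density kept falling with distance from the nearest coding start, well beyond the limit that the rule set. It was 3.97 peaks per Mb (3.68 to 4.26) at 10 to 20 kb, 2.29 at 20 to 50 kb, 1.15 at 50 to 100 kb, 0.524 at 100 to 200 kb and 0.272 (0.178 to 0.399) beyond 200 kb. The intervals of these 5 classes did not overlap, although the upper bound of 0.399 beyond 200 kb lay just under the lower bound of 0.408 at 100 to 200 kb. Median scores in these classes ran from 82.7 at 10 to 20 kb to 66.8 beyond 200 kb. Distance from the nearest coding exon gave the same order. Within 1 kb of an exon the density was 4.14 per Mb (3.82 to 4.47), and more than 20 kb from one it was 0.585 (0.489 to 0.695). Of the 1688 peaks, 627 (37.1%) lay within 1 kb of an exon, in 17.2% of the deep intronic sequence.

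Genes with an LSD1 peak at a promoter also held more deep intronic peaks. Hosts with a promoter peak carried 1279 of the 1688 (75.8%) in 474 Mb, or 2.7 per Mb (2.55 to 2.85). Genes without one carried 409 in 409 Mb, or 1 per Mb (0.906 to 1.1). The ratio was 2.7 (2.41 to 3.02), and its interval lay above 1 in each of the 5 distance classes. At 10 to 20 kb the densities were 5.14 and 2.08 per Mb with and without a promoter peak, a ratio of 2.47 (2.06 to 2.98). At 50 to 100 kb they were 1.55 and 0.708, a ratio of 2.19 (1.63 to 2.98). Beyond 200 kb they were 0.597 and 0.0681, from 22 and 4 peaks, a ratio of 8.76 (2.98 to 35). Genes were also ordered by the deep intronic sequence that each holds, and divided into 4 groups with equal totals of it. The ratio was 1.87 (1.62 to 2.17) in genes with the least, and 2.22 (1.74 to 2.85) and 3.45 (2.41 to 5.03) in the next groups. It was 1.48 (0.926 to 2.34) in genes with the most, where the interval includes 1. The scores did not follow the density, with a median of 79.9 in hosts with a promoter peak and 88.3 in hosts without.

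**Figure D1:**
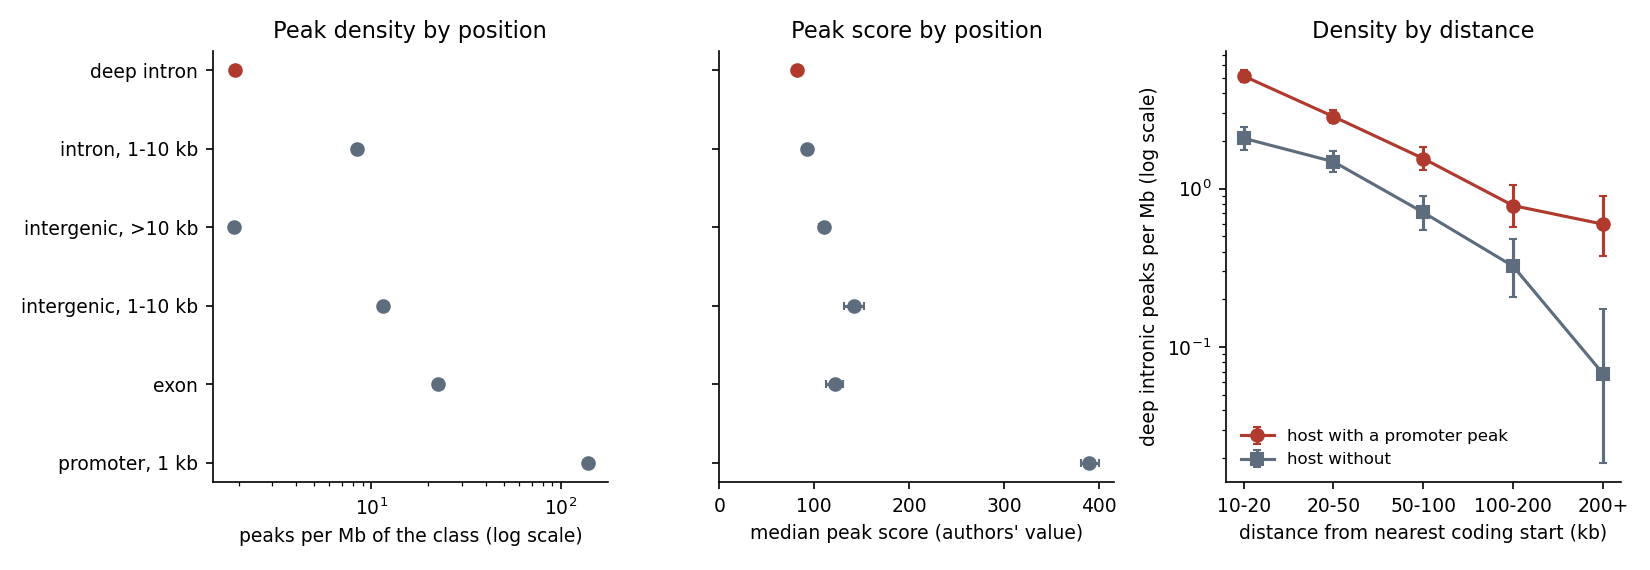
Left, LSD1 peaks per Mb in deep introns and in 5 other position classes, and middle, the median peak score of each class, with 95% intervals. Right, deep intronic peaks per Mb by distance from the nearest coding start, for hosts with and without a promoter peak. Density in deep introns (1.91 per Mb) lies beside that in remote intergenic sequence (1.89), and hosts with a promoter peak lie above hosts without at each distance.

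Pooled over all genes, deep intronic peaks were denser towards the end of the host than towards its start. The density in the 4 equal stretches of the host from its start to its end was 1.47, 1.55, 1.99 and 2.59 per Mb, from 264, 372, 484 and 568 peaks. The last stretch, with an interval of 2.38 to 2.81, stood above the other 3. Density also differed between genes, from 4.61 per Mb in those with the least deep intronic sequence to 0.363 in those with the most. The part of this difference in the order along the host was not tested. Intron 1 of the longest transcript held 305 peaks (18.1%, interval 16.3 to 20), beside 19.2% of the deep intronic sequence, which the interval includes. With the starts of every transcript of coding genes the share lay above that of sequence, with 25% (22.4 to 27.8) of peaks beside 22%. More than 20 kb from starts it lay below, at 14.2% (12 to 16.6) beside 17%. It was 24.1% (21.6 to 26.7) where the whole peak had to meet the rule, with no matching share of sequence counted. Intron 4 or a later one held 848 (50.2%), and the share of deep intronic sequence in such introns was not counted. Chromosome 19, which is dense in genes, had the highest density, with 130 peaks in 10.6 Mb, or 12.2 per Mb (10.2 to 14.5). Chromosome Y had 0 in 2.09 Mb, with an interval of 0 to 1.77 per Mb. The copy number of chromosomes in these cells was not examined, so this 0 cannot be read as low occupancy. The next lowest was chromosome 13, with 12 peaks and 0.469 per Mb (0.243 to 0.82).

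Most deep intronic peaks stood apart from each other, and a small share lay in longer runs. Of the 1688, 640 (37.9%, interval 35.6 to 40.3) had another deep intronic peak within the linking distance, which was set between 12 and 13 kb from midpoint to midpoint. Any other LSD1 peak lay within that distance of 904 (53.6%). Linked among themselves, 1048 had no deep intronic neighbour, 163 pairs and 54 groups of 3 formed, and 116 peaks (6.87%) fell in groups of 5 or more. Peaks with such a neighbour had a median score of 90.7 (85.5 to 97.4) and a width of 1468 bp. Those without had 76.1 (73.8 to 78.9) and 1204 bp. In all, 1076 of the 11203 protein-coding genes with deep intronic sequence (9.6%) hosted at least 1 peak, and 764 of these hosted exactly 1.

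HMGA2, a chromatin architectural protein of embryonic tissue that many tumours express again, hosted the most, with 21. The gene lies on the plus strand at chr12:66218240-66360071. Its deep intronic peaks sat in introns 3 and 4, had scores from 60.43 to 575.77 with a median of 188.42, and were up to 5495 bp wide. Together they covered 72.6 kb, or 58.4% of the 124 kb that they spanned. Peaks of 3100.00 at the promoter, 2256.50 next to it and 1709.00 at the other end of the gene lay outside this run, and 26 peaks touched the gene in all. The density of 178 per Mb (110 to 272) compares with 1.91 over all deep introns.

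DCBLD2, a transmembrane receptor-like protein also known as ESDN, hosted 18 at chr3:98514785-98620539 on the minus strand. Their scores ran from 51.44 to 803.20 with a median of 95.60, and they covered 31.2 kb, or 35.1% of their span. ARHGAP29, a GTPase-activating protein, hosted 11 on chromosome 1, with scores from 51.40 to 346.96. TXNRD1, the cytosolic thioredoxin reductase, hosted 10 on chromosome 12, with scores from 50.79 to 211.90. SPIRE1, an actin nucleation factor, hosted 10 on chromosome 18, with scores from 50.48 to 187.92. All 5 hosts had a promoter peak. In each of them a single peak near the far end of the gene was higher than every deep intronic one, at 1709.00 in HMGA2, 2173.27 in DCBLD2, 1496.56 in ARHGAP29, 1754.66 in TXNRD1 and 1725.04 in SPIRE1. This last feature was picked out after the values were seen, and it was not counted over other genes. The AP-1 site lay at the midpoint of 1 of 21 peaks in HMGA2, 1 of 18 in DCBLD2, 1 of 11 in ARHGAP29, 2 of 10 in TXNRD1 and 0 of 10 in SPIRE1.

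**Figure D2:**
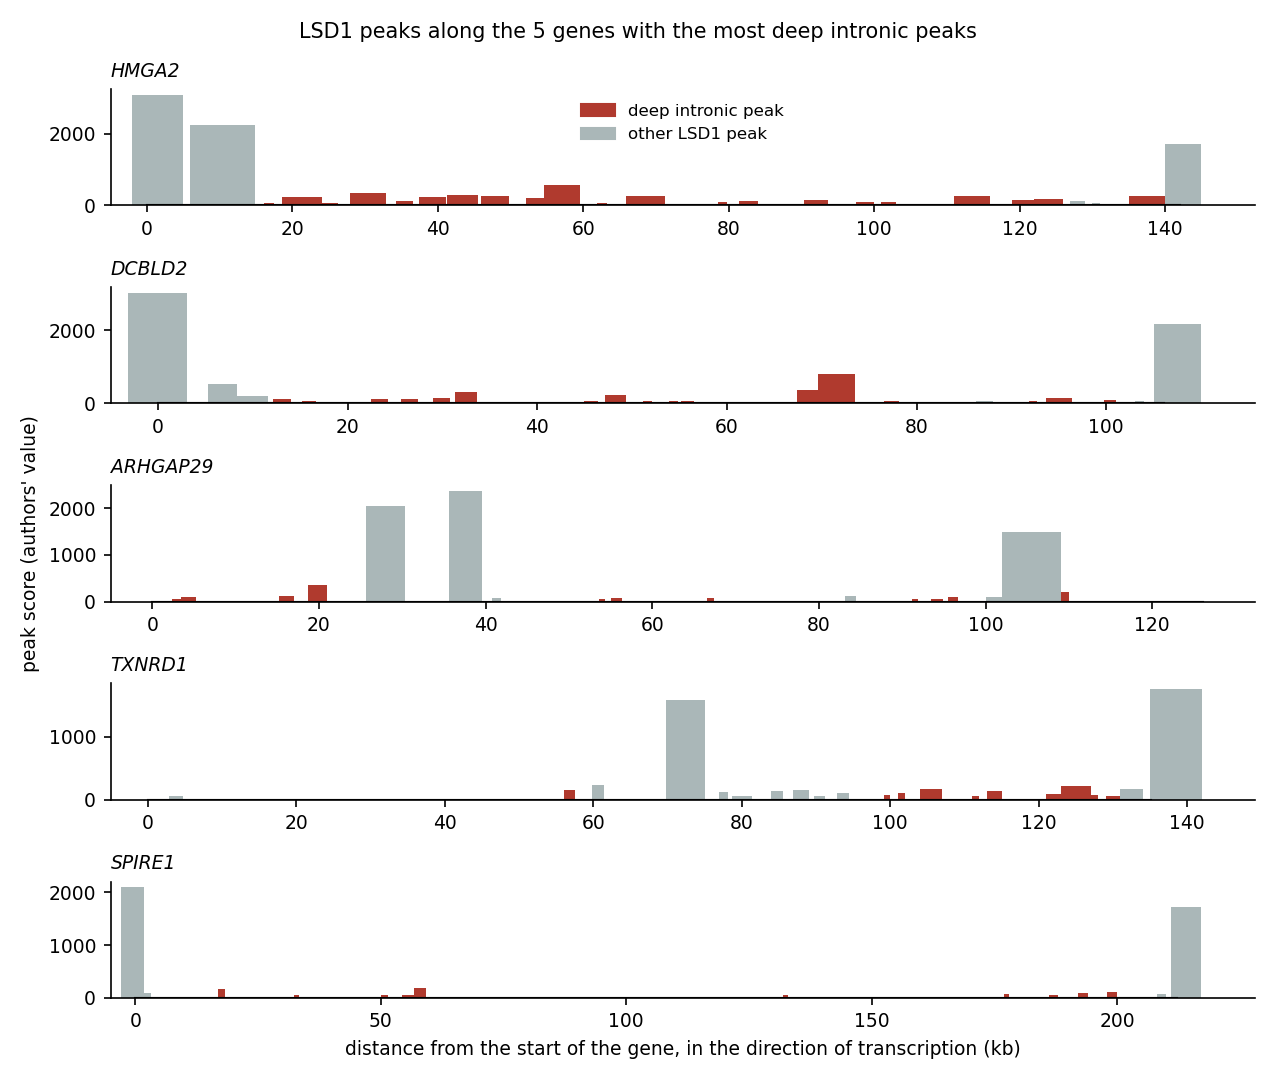
Score of each LSD1 peak against its place along the 5 genes with the most deep intronic peaks, from the start of the gene in the direction of transcription (kb), with bar width equal to peak width. Deep intronic peaks are red and other peaks grey. The red bars in HMGA2 stay at or below 575.77, between grey peaks of 3100.00 and 1709.00.

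The highest-scoring deep intronic peaks were of another kind. Of the 10 highest, 4 covered a small RNA gene lying within the intron. TEX14, which encodes a protein of the bridges between germ cells, on chromosome 17, hosted 3 of these 4. Its top peak, at chr17:56756274-56757597, had a score of 3197.22, the highest of all 1688, and covered RNU1-85P, whose name marks it as a pseudogene copy of the U1 spliceosomal RNA. Its midpoint also lay in the coding gene IGBP1C. No label states whether the repeated value of 3100 is a limit of the score, so the order of this peak and those at 3100.00 is uncertain. Further TEX14 peaks of 3100.00 covered a U3 snoRNA and RNU1-60P, and a lower one of 151.79 covered RNU1-108P. The remaining one was in ARMH1 and covered RNU5F-1, a U5 spliceosomal RNA gene, at 3100.00. Over all 1688, 22 peaks (1.3%, interval 0.819 to 1.97) overlapped a small RNA gene, and 12 of them an snRNA gene. The 22 had a median score of 380 and a median width of 1932 bp, and the 12 over snRNA genes had 143 and 1296 bp. The share of deep intronic sequence in small RNA genes was not counted. Small RNA genes have near-identical copies, and how the aligner placed reads among these is not stated, so which copy was bound is uncertain.

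Another 2 of the 10 lay at long non-coding RNA genes. They were a peak of 3100.00 in CAPRIN2 over LINC00941 and one of 2460.41 in ELFN1 over ELFN1-AS1. The others were in TSPAN4, a tetraspanin, at 3100.00 and 9378 bp wide, in TMPRSS9, a membrane serine protease, at 3100.00, in DLGAP1, a postsynaptic scaffold protein, at 3100.00, and in STX1A, a syntaxin of synaptic vesicle release, at 2190.92. In TSPAN4, TMPRSS9 and STX1A the midpoint of the peak met the rule, but the whole peak did not. DLGAP1 had strong intronic peaks and no promoter peak. It hosted 5, all in intron 7, with scores of 62.84, 244.09, 1732.97, 1942.26 and 3100.00. The highest lay 169 kb from the nearest coding start and held the first AP-1 sequence shown above. Those of 1732.97 and 1942.26 lay over the antisense lncRNA genes DLGAP1-AS1 and DLGAP1-AS2.

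Starts of non-coding genes, which the rule did not use, held more of these peaks than their share of sequence. Of the 1688, 104 (6.16%, interval 5.06 to 7.42) lay within 1 kb of such a start, beside 2.04% of the deep intronic sequence. Of these, 72 were nearest to a lncRNA and 13 to an snRNA. The 104 had a median score of 134, against 80.1 for the other 1584. A midpoint inside a non-coding exon was found for 57 (3.38%, 2.57 to 4.35), beside 0.874% of the sequence. The other 93.8% lay farther than 1 kb from the start of any annotated non-coding gene.

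The sequence at the midpoints was richer in GC than the surroundings. In the 200 bp at the midpoint the median GC content was 51% (50.5 to 52), and it exceeded the mean of the flanks at 5 kb by a median of 4.75 points (4.25 to 5.25). It was above the flanks in 70.7% of peaks, and deep intronic windows outside peaks averaged between 39.3% and 41.2% by distance from exons. The CpG observed-to-expected ratio was 0.238, against 0.245 in near introns and 0.805 at promoters, so deep intronic peaks were poor in CpG.

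The AP-1 site lay in the 200 bp at the midpoint of 162 of the 1688 (9.6%, interval 8.23 to 11.1). Of all 4396408 consecutive 200 bp windows of deep intronic sequence outside peaks, 2.99% held it, which gives a 3.21-fold excess (2.75 to 3.71). The flanks at 5 kb held it in 2.84%. The excess was present at every GC level, from 2.35-fold (1.67 to 3.21) at 55% GC or more to 4.18-fold (3.08 to 5.51) at 50 to 55%, though at under 35% GC, with 4 of 50 peaks, the interval of 0.949 to 8.21 includes 1. Along the profile around the midpoint the share was highest within 200 bp, at 9.83% for the window centred 200 bp before it and 9.6% at the midpoint. The whole peak held at least 1 AP-1 site in 710 (42.1%), and 1 peak held 7, but wider windows meet the site more often by their length alone.

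AP-1 sites were more frequent in deep than in near introns, by 3.25 points (1.55 to 5.01) over 6.35%, and than at promoters, by 7.88 points (6.54 to 9.4) over 1.71%. The difference to remote intergenic peaks, which had 8.37%, was 1.23 points (-0.489 to 3.02), an interval that includes 0. Score did not separate peaks with and without the site. In 4 equal groups from low to high score the share was 8.29%, 9.48%, 12.1% and 8.53%, and the highest group differed from the lowest by 0.237 points (-3.56 to 4.04).

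Within deep introns the AP-1 share varied with distance from coding exons, a split chosen after seeing the data. It was 5.9% (4.19 to 8.04) within 1 kb of an exon, 8.3% (6.07 to 11) at 1 to 5 kb, 13.8% (10.6 to 17.5) at 5 to 20 kb and 19.4% (13 to 27.3) beyond 20 kb. The windows outside peaks showed no such order, with 3.03%, 2.95%, 2.97% and 3.04%. The fold over these windows was thus 1.95 (1.38 to 2.65) nearest to exons and 6.37 (4.26 to 8.96) farthest from them. Peaks more than 5 kb from an exon exceeded those nearer by 8.11 points (4.91 to 11.6). Median GC content moved with this order, from 53.5% nearest to exons to 49% farthest, while median scores stayed between 80.2 and 83.4. Among peaks under 50% GC the share was 17% more than 5 kb from an exon and 7.29% nearer, and among those at 50% or more it was 13.2% and 6.77%.

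Peaks with no other deep intronic peak within the linking distance had the site more often than peaks with one. It was found in 6.56% of peaks with another deep intronic peak within the linking distance and in 11.5% of those without, a difference of -4.89 points (-7.55 to -2.06). Among peaks with no such neighbour, the share was 16.1% more than 5 kb from an exon and 8.73% nearer. Peaks in intron 1 exceeded peaks elsewhere by 4.29 points (0.591 to 8.76), at 13.1% and 8.82%. Of the 22 peaks over small RNA genes, 0 held it (interval 0 to 15.4%).

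**Figure D3:**
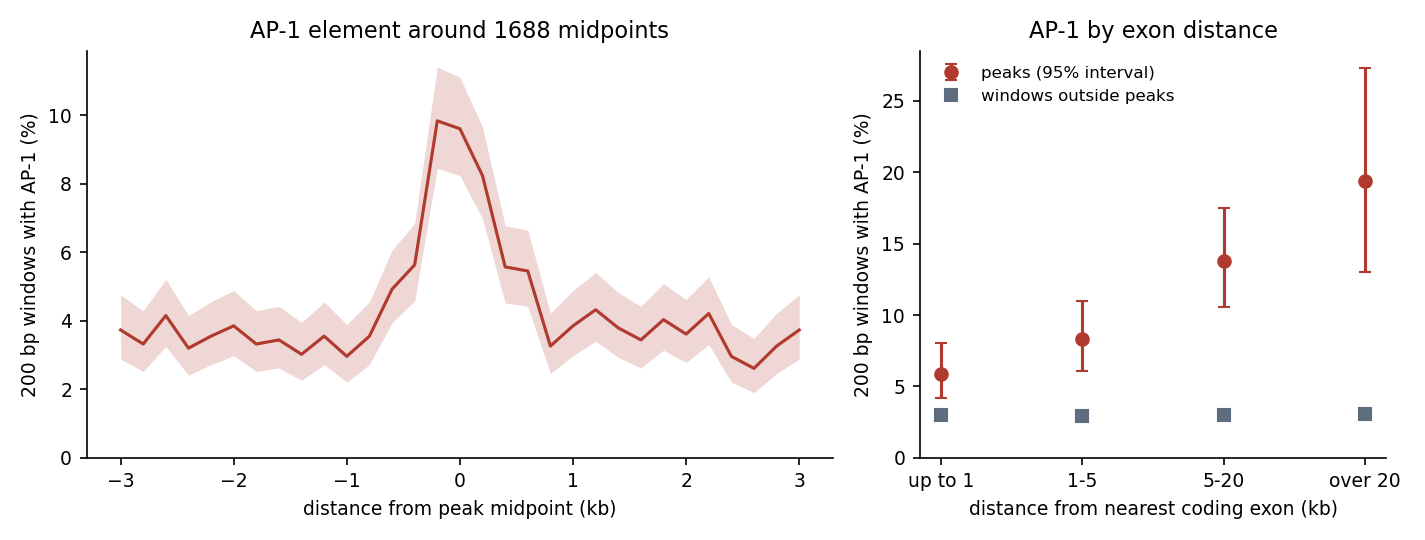
Left, share of 200 bp windows with the AP-1 site by distance from the midpoints of 1688 deep intronic peaks, with the 95% interval as a band. Right, share of peaks and of deep intronic windows outside peaks with the site in the 200 bp window, by distance from the nearest coding exon. The share at the midpoint is 9.6%, and peaks beyond 20 kb from an exon reach 19.4% while windows outside peaks stay near 3.04%.

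Of the other elements searched on both strands, several GC-rich ones were more frequent at deep intronic peaks than in windows outside peaks, and less so against the flanks. The SP site GGGGCGGGG was in 1.84% of peaks, 10.5-fold over windows outside peaks and 2.82-fold over the flanks. The core of the site of CTCF, the insulator protein, was in 2.07% (35 peaks), 5.51-fold over windows outside peaks and 1.79-fold over the flanks. The ETS site CCGGAAG was in 1.66%, 4.35-fold and 1.65-fold. The E-box CACGTG of MYC was in 4.92%, 2.75-fold and 1.44-fold. These elements are rich in GC and so are the peaks. Among windows of at least 55% GC the folds over windows outside peaks were 3.26 (2.1 to 4.81) for SP, 1.84 (1.17 to 2.74) for CTCF and 2.57 (1.62 to 3.86) for ETS. For the MYC E-box the fold there was 1.32 (0.929 to 1.82), whose interval includes 1. It was 2.58 (1.65 to 3.8) at 45 to 50% GC and 1.69 (1.03 to 2.6) at 50 to 55%, and at each lower level the interval includes 1. Sites of GATA factors, AGATAA, were in 7.11% of peaks, 0.474-fold (0.395 to 0.563), and at 40 to 45% GC the fold was 0.972 (0.682 to 1.33). The CAGGTG E-box of SNAI and ZEB repressors, whose SNAG-domain member SNAI1 recruits LSD1, was in 21.7% of peaks and in 22.8% of flanks. Its fold over windows outside peaks was 1.49 (1.36 to 1.63), but 0.743 (0.609 to 0.891) at 50 to 55% GC and 0.877 (0.766 to 0.994) at 55% or more. FOXA sites, TGTTTAC, were in 2.84% of peaks and 2.25% of flanks. A match to these letters is a description of sequence, not a measured binding site.

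The androgen response element, a 13-base palindrome bound by the androgen receptor and related steroid receptors, was in 11 peaks (0.652%, interval 0.326 to 1.16). This was 2.66-fold (1.33 to 4.75) over windows outside peaks, where 0.245% held it, and 2.2-fold over the flanks, where 0.296% did. Within each GC level the interval of the fold includes 1. It was 4.42 (0.915 to 12.8) at 40 to 45% GC and 0.501 (0.0127 to 2.78) at 55% or more. Only 1 remote intergenic peak had the element (0.0372%), a difference of 0.614 points (0.279 to 1.13). Near intronic peaks had it in 0.35%, a difference of 0.301 points (-0.144 to 0.841). The RUNX site TGTGGTT was in 4.68% of deep intronic and 2.86% of remote intergenic peaks, a difference of 1.82 points (0.669 to 3.07), but its fold over windows outside peaks was 1.21 (0.959 to 1.49). The highest-scoring examples of the androgen response element and the CTCF core within the central 100 bp, on the same chromosomes, follow, with the element in capitals. They lie in HMGA2 at chr12:66239500-66239599 and in a coding gene listed as ENSG00000286221 at chr16:80966425-80966524, on the plus strand of GRCh37.
HMGA2 intron 3, androgen response element, peak score 222.50: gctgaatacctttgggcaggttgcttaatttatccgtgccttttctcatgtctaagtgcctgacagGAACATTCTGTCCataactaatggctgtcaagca
ENSG00000286221 intron 2, CTCF core, peak score 197.28: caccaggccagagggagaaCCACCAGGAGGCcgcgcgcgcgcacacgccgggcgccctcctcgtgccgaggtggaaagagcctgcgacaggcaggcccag

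**Figure D4:**
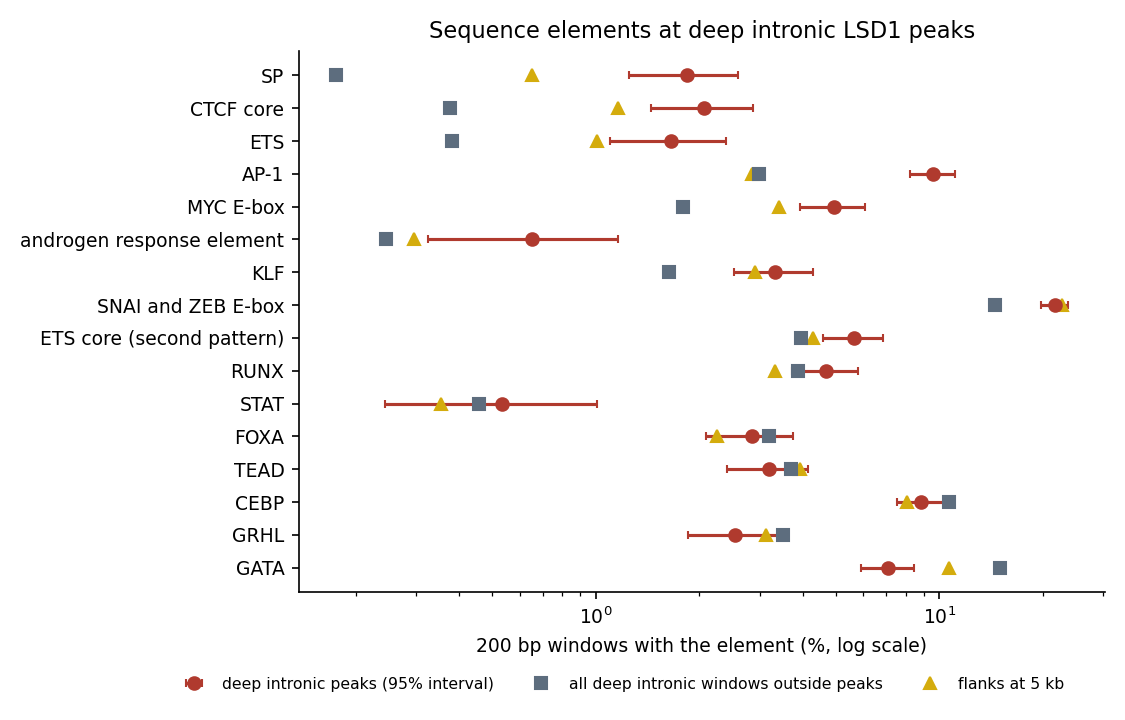
Share of 200 bp windows (%, log scale) that hold each of 16 sequence elements, at deep intronic peaks with 95% intervals, in all deep intronic windows outside peaks, and in the flanks at 5 kb. AP-1 stands at 9.6% at peaks, 2.99% in windows outside peaks and 2.84% in the flanks.

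The hosts included groups of genes known in adhesion, signalling and chromatin, and their counts are read against the 9.6% of all genes that were hosts and the density of 1.91 per Mb over all genes. Of 22 integrin and focal adhesion genes with deep intronic sequence, 9 (40.9%) were hosts, with 22 peaks at 8.99 per Mb (5.63 to 13.6). A promoter peak was present in 19 of these 22 genes, beside 6712 of all 11203 genes. ACTN4, an actin-bundling alpha-actinin, had its highest peak at 257.52, BCAR3, an adaptor bound to the focal adhesion protein BCAR1, at 239.88, and ITGB4, the integrin of hemidesmosomes, at 151.44. PXN, which encodes the focal adhesion scaffold paxillin, hosted 1, in intron 1, with a score of 89.73 and a width of 2081 bp, among 11 peaks touching the gene.

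Growth factor receptors and ligands had 8 hosts of 18 (44.4%), with 11 peaks at 3.14 per Mb (1.57 to 5.61), an interval that includes 1.91. INSR, the insulin receptor, had a peak of 1110.30, EREG, which encodes the EGF receptor ligand epiregulin, one of 263.00, and EPHA2, an ephrin receptor, one of 184.43. Genes of LSD1's own complexes had 4 hosts of 15, with 8 peaks at 5.12 per Mb (2.21 to 10.1). The corepressor CTBP2 alone hosted 4 of these 8, the highest at 94.10, and the density without it was not computed. HDAC1, the deacetylase of CoREST and NuRD, hosted 1, at 198.89. The NuRD subunit GATAD2A hosted 2, the higher at 87.84. KDM1A itself hosted 0.

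Hippo and TEAD genes had 3 hosts of 16 at 1.74 per Mb, led by TEAD1, the DNA-binding partner of YAP, at 475.24, with VGLL4, a TEAD cofactor, at 141.08 and STK4, a Hippo kinase, at 127.42. AP-1 and MAPK feedback genes had 2 hosts of 12 at 2.51 per Mb, the ERK inhibitor SPRED2 at 75.66 and the repressor BACH1 at 73.99. Nuclear receptors had 2 hosts of 15 at 0.94 per Mb, RXRA at 110.98 and PPARG at 86.14. Epithelial junction genes had 4 of 19 at 1.06 per Mb, led by MAGI2 at 405.28, PTPRM at 131.22 and beta-catenin, CTNNB1, at 128.25. TGF-beta and SMAD genes had 1 of 18, the co-receptor TGFBR3 at 91.04, and genes of EMT and cell state had 1 of 15, the epithelial factor GRHL2 at 51.85. The intervals of these 6 groups all include 1.91.

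The lists of lowest density were those of very long genes. Neuronal adhesion and synapse genes held 2 peaks in 23.3 Mb of deep intronic sequence, or 0.086 per Mb (0.0104 to 0.311), in DLG2 at 51.93 and GRIK2 at 50.40. Genes of common fragile sites held 6 in 27.9 Mb, or 0.215 per Mb (0.0789 to 0.468), with peaks of 96.45 in LRP1B and 86.51 in CDH13 among them. Their hosts were 2 of 20 (10%) and 3 of 19 (15.8%), beside 9.6% of all genes. In the group of genes with the most deep intronic sequence each, 18.9% were hosts. Over all genes as well, density fell as the deep intronic sequence per gene rose. It was 4.61 per Mb in the group with the least and 0.363 (0.287 to 0.451) in that with the most. The parts of deep intronic sequence per gene and of promoter peaks in the densities of the lists were not tested.

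**Figure D5:**
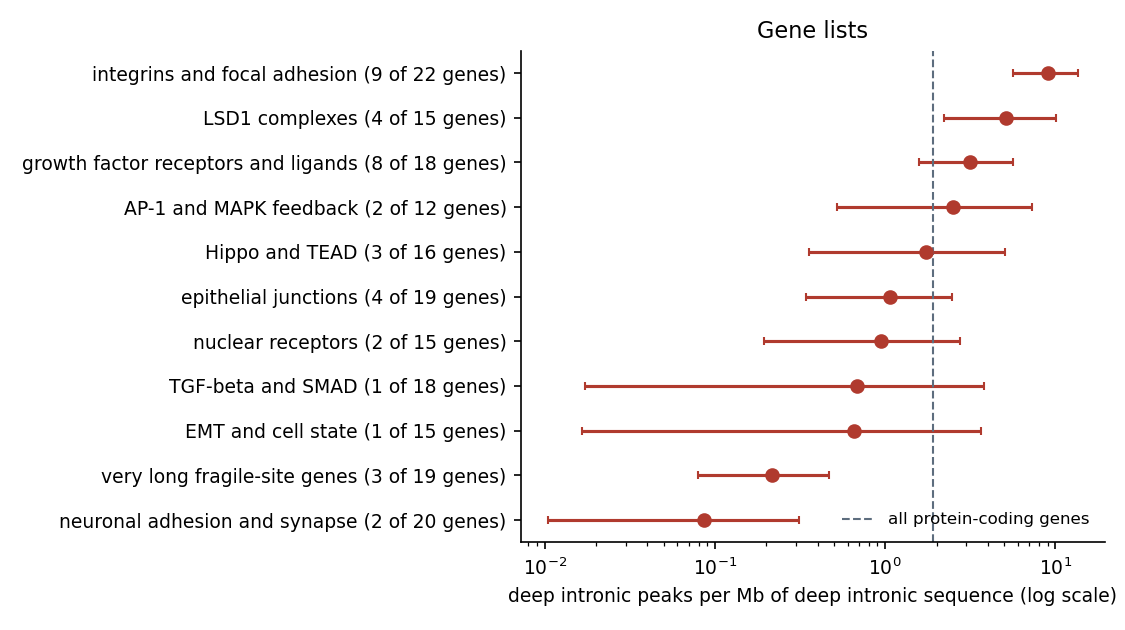
Deep intronic peaks per Mb of deep intronic sequence (log scale) in 11 gene lists, with exact 95% Poisson intervals, and the hosts of all genes with such sequence in brackets. The dashed line marks all protein-coding genes (1.91 per Mb). Integrin and focal adhesion genes lie highest, at 8.99, and neuronal adhesion and synapse genes lowest, at 0.086.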

How the data were processed

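LSD1 ChIP and input DNA of PC-3M-luc cells gave 1 library each, and the authors' deposited peak list holds positions and a score per peak. Reads were mapped to hg19 with bowtie 2, per the labels' protocols. The submitters' processing notes name MACS 1.41, Bowtie2 and the builds hg19 and mm10, and mm10 was not used because the cells are human. Settings, duplicate handling, read numbers and the threshold are not given in the sources used here. The deposited score was read as 10 times the negative log10 of the p-value from its values, since no label states it, and was used for ranking, filtering and description alone.

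Peaks were placed by midpoint on GENCODE 44 mapped to GRCh37, in the order promoter (within 1 kb of the start of a protein-coding transcript), exon, intron and intergenic, with intron and intergenic divided at 10 kb from a start. A midpoint in several genes took the longest as host. Densities used non-gap sequence that meets the same rule. The 20 motifs were counted on both strands in 200 bp windows, in 2 flanks at 5 kb, of which 12.4% lay in another peak, and in all tiles outside peaks. Printed sequences are of the highest-scoring peaks with the element in the central 100 bp, outside chromosome 8.

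The peaks, the gene lists and the comparisons were chosen with earlier results of these data known. Named genes were the hosts of the 10 highest-scoring peaks, the 5 hosts with most peaks, up to 3 hosts per list by score (1 list and some genes are not reported here), KDM1A, PXN and the chromosomes with the highest and the lowest density. Splits by exon distance and by position along the host, and of AP-1 within peaks, were chosen after seeing the data. Hosts of the printed sequences follow from their rule. Code was tested on simulated data. Python 3.11.15, numpy 2.4.6, scipy 1.17.1, numba 0.67.0, pysam 0.24.0 and matplotlib 3.10.9 were used.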

Additional observations from a re-analysis of the deposited data

How the results depend on the processing

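The share in intron 1 was 18.1%, with an interval of 16.3 to 20 that includes the 19.2% of sequence. Of the alternatives below, it lay above the share of sequence with the starts of every transcript, and below it more than 20 kb from starts. For whole peaks no matching share of sequence was counted. With a score of at least 100 there were 637 peaks, 0.722 per Mb, a median width of 2009 bp, a median score of 176, a share of 16% in intron 1, a promoter ratio of 2.26, 9.89% at non-coding starts and 27.2% with a neighbour. At or above the median score the same values were 844 peaks, 0.956 per Mb, 1786 bp, 143, 8.41% at non-coding starts and 32.5% with a neighbour. More than 20 kb from starts there were 959 peaks, 1.37 per Mb, with 14.2% in intron 1 (17% of that sequence) and 33.6% with a neighbour. With the starts of every transcript of coding genes there were 1020, 1.43 per Mb, 1271 bp, 25% in intron 1 (22% of that sequence) and 30.7% with a neighbour. Where the whole peak had to meet the rule there were 1115, 1.26 per Mb against the same sequence, 1195 bp, a score of 76.6, an AP-1 share of 11.5%, an AP-1 fold of 3.84, 24.1% in intron 1 and 27.8% with a neighbour. These filters keep fewer peaks by construction, and what caused the other shifts was not tested. A 500 bp window gave an AP-1 share of 22.3% and a GC difference of 4.1 points, intron 1 of any transcript held 39.6% (41% of sequence), and 25.1% had a neighbour within 5 kb. The AP-1 share without HMGA2 and DCBLD2, chosen after seeing the data, was 9.7%, the share with a neighbour 36.5% and the promoter ratio 2.62. In all, 43 recomputed values, these 3 included, stayed within the interval of the main value, and 35 fell outside it. These were counting intervals, except for the number of peaks, where a wider band of 1125.33 to 2532 was used. No paired analysis was possible because the study has 1 library per arm. Depth is unknown, so weak or absent peaks far from genes cannot be told from shallow reads.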
